A study of Homo sapiens with 3 samples.

Results

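Human cells carrying an inducible knockdown of HRD1 were compared after 5 days of doxycycline and at day 0, by the reads of 8086 protein-coding genes. The genes were taken from 58243 in the deposited tables by 3 conditions. These were a protein-coding biotype (19818 genes), a mean of at least 100 unique gene reads over the day 0 and day 5 libraries (10271 of these), and at least 90% of total gene reads placed uniquely (8086, leaving out 2185). None of these used the difference between the libraries, but a minimum on the mean can be met through 1 library alone. That was so for 105 genes, 93 with under 100 reads at day 0 and 12 with under 100 at day 5, and 20 of these 105 are among the 103 genes counted as different below (16 higher and 4 lower).

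HRD1, encoded by SYVN1, is a membrane-bound ubiquitin ligase of the endoplasmic reticulum (ER). With its partner SEL1L it passes misfolded proteins out of the ER to the proteasome, a route called ER-associated degradation. When unfolded proteins accumulate, 3 sensors act on gene expression: IRE1 splices the XBP1 mRNA, PERK slows translation and favours ATF4, and ATF6 is cut to give a transcription factor of chaperone genes. Together these arms are the unfolded protein response.

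The cells are labelled as LoVo, a colorectal carcinoma line, of epithelial type, with the genotype of an inducible HRD1 knockdown from a Tet-On short hairpin RNA. Doxycycline at 1 µg/ml switched the hairpin on, and cells were taken at 0, 3 and 5 days, with 1 library per time. All 3 libraries come from cells that carry the hairpin, and neither cells given doxycycline without it nor another hairpin were analysed here. The effect of the hairpin, of doxycycline itself and of the days in culture therefore cannot be told apart, and whether the cells were 1 clone or a pool is not given in the sources used here. With 1 library a side no difference was tested: the sizes below compare libraries, not conditions. Square brackets hold exact 95% intervals that cover counting error only, not variation between cultures.

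Unique gene reads numbered 19003207 at day 0, 19559795 at day 3 and 22549242 at day 5, and the selected genes took 82.7% to 83.2% of them. Scaling factors (TMM, from edgeR) were 0.971 to 1.02, and scaled reads are given as CPM, reads relative to the scaled library total, where 3 reads amount to 0.130 to 0.158 CPM. The share of intron reads was 3.98%, 3.14% and 3.93%, and the share of exon reads that crossed a junction was 66.5%, 67.3% and 63.7%. The markers went against the label of a colon epithelium: 15 of 18 averaged under 100 reads, with 70, 58 and 100 reads between them, and 8, 3 and 4 of these were at 0. All 18 together had 25698, 29522 and 28902 reads. KRT8, a keratin of simple epithelia of any organ, had 15798, 17741 and 17282 of these, and KRT19, another keratin, had 1710, 2587 and 2345. Among the low markers, EPCAM, the epithelial adhesion molecule, had 17, 14 and 19. CDH1, which encodes E-cadherin, had 3, 2 and 10, and CDX2, the intestinal transcription factor, had 0 in each. VIM, which encodes vimentin of mesenchymal cells, had 57732, 66089 and 64177, with 56.7% of its reads unique. It held most of the 63616, 71701 and 70700 reads of the 20 listed mesenchymal markers. Of these 20, 11 averaged under 100 reads, with 56, 113 and 88 between them.

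Most genes were close to their day 0 level. The log2 ratio of day 5 over day 0 had a median of 0.02, its middle 50% lay between -0.11 and 0.15, its standard deviation over genes was 0.203, 4372 genes (54.1%) were above day 0, and 7983 of 8086 genes (98.7%) were within 1.5-fold. At least 1.5-fold higher, with an interval that excludes 1, were 71 genes (0.878%), and 32 were at least 1.5-fold lower (0.396%). At 2-fold these numbers were 4 (0.0495%) and 5 (0.0618%). In the words below, higher and lower stand for a difference of at least 1.5-fold by this rule, while above and below day 0 stand for a sign only. The split between higher and lower genes moved with the processing, from 71 against 32 to 53 against 41 with the authors' TPM, to 82 against 59 with no minimum on the share of unique reads, and to 37 against 28 after trends on coding length and GC content had been removed. With intervals that exclude 1.5 it was 10 against 11. Every gene past 1.5-fold had an interval that excluded 1. Beside the minimum of 100 reads, that condition therefore removed 0 genes and adds nothing to the counts of 71 and 32. Of the 84 genes just inside the minimum, with a mean of 100 to 110 reads, 6 were higher and 2 lower. Of the 86 just outside, with 90 to 100 reads, 6 were higher and 7 lower. Just inside the limit of unique reads, at 90% to 92%, 182 genes held 2 higher and 2 lower, and just outside, at 88% to 90%, 173 genes held 2 and 0.

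**Figure D1:**
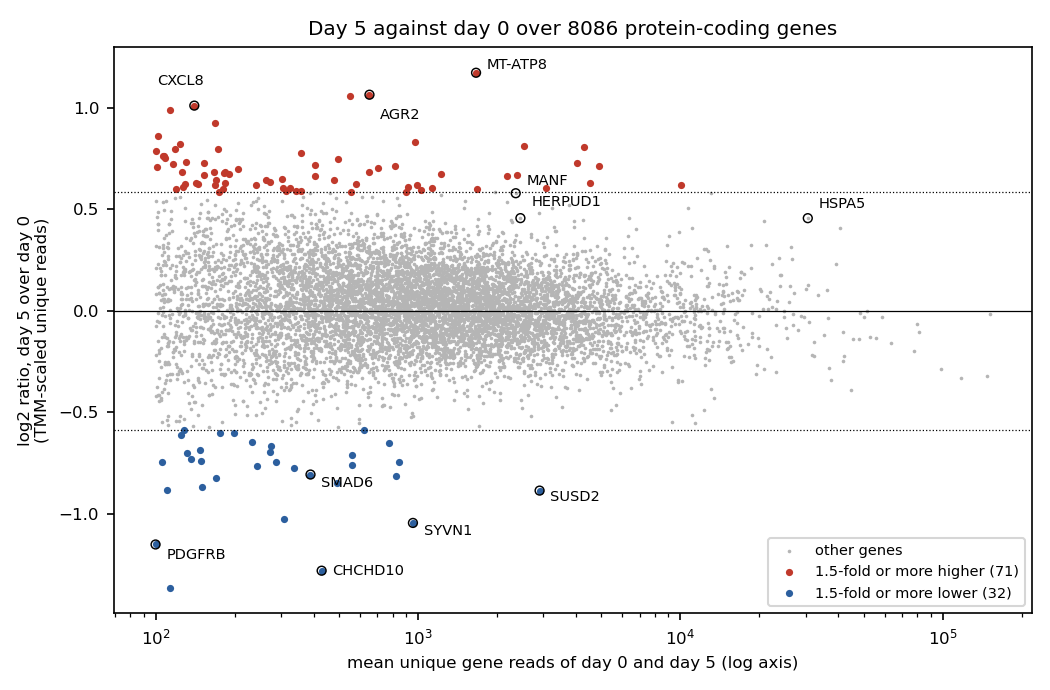
Each point is 1 of the 8086 genes, with the mean of its unique reads in the day 0 and day 5 libraries on a log axis and its log2 ratio of TMM-scaled reads on the other. Dotted lines mark 1.5-fold, the 71 higher genes are red and the 32 lower genes blue. The called genes lie mostly at the left, among genes with few reads, and named genes are ringed.

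The hairpin's target was lower. SYVN1 (ENSG00000162298) lies on the minus strand of chromosome 11 (GRCh38, 65121780 to 65134533). It had 1210, 646 and 704 unique reads at day 0, day 3 and day 5, or 63.1, 34.0 and 30.6 CPM. The day 5 level was 48.4% of day 0, a log2 ratio of -1.04 [-1.18 to -0.91], beside -0.89 at day 3. Both libraries with doxycycline were below the one without. The difference was seen in exon reads, 1167, 630 and 675 (-1.07 [-1.21 to -0.94]), and intron reads, which were few at 43, 16 and 29, gave -0.81 [-1.55 to -0.11]. Per length, SYVN1 stood at 43.0, 21.4 and 20.3 TPM by the authors' values.

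The other genes of the degradation machinery differed little. Of 32 genes listed for the HRD1 complex and ER-associated degradation, 18 were above and 14 below day 0. SYVN1 was the 1 lower gene and none was higher, and the median log2 ratio was 0.01. Over all 8086 genes 54.1% were above day 0, 0.396% lower and 0.878% higher, with a median of 0.02. SEL1L, which holds HRD1 in its complex, had 2244, 2010 and 2691 reads and a log2 ratio of -0.00 [-0.08 to 0.08]. HERPUD1, which recruits factors to the HRD1 complex, had 1856, 2939 and 3059 reads and was above day 0 by 0.46 [0.37 to 0.54] on the log2 scale, and by 0.68 at day 3. SVIP, a small inhibitor of this route, had few reads, 104, 108 and 169, and 0.43 [0.07 to 0.80], but 0.07 after removal of trends on coding length and GC content. Among the rest, VCP, the ATPase that pulls substrates from the membrane, had -0.19 and UBE2J1, a ubiquitin-conjugating enzyme of the complex, 0.28. Apart from SYVN1, the machinery was therefore spread over both sides of its day 0 level, within 1.5-fold.

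Of the chaperones of the ER lumen, MANF, HSPA5 and HSP90B1 had the 3 largest log2 ratios, and none reached 1.5-fold. MANF (ENSG00000145050, chromosome 3, positions 51385047 to 51389397, plus strand), an ER protein that cells secrete under stress, had 1688, 2287 and 3029 reads, or 88.1, 120 and 132 CPM. It was 1.49-fold above day 0, a log2 ratio of 0.58 [0.49 to 0.67], beside 0.45 at day 3, so it lay just under the 1.5-fold limit, and its exon reads gave 0.56. HSPA5 (minus strand of chromosome 9, 125234853 to 125241330), which encodes BiP, the main ER chaperone, had 23111, 37606 and 38084 reads, with a log2 ratio of 0.46 [0.43 to 0.48] beside 0.72 for day 3. HSP90B1, the HSP90 of the ER, had 15769, 23404 and 25730 reads and 0.44 [0.41 to 0.47], beside 0.58. In CPM, HSPA5 (1206, 1980 and 1654) and HSP90B1 (823, 1232 and 1118) were highest in the day 3 library and MANF in the day 5 library.

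Of the 25 measured genes listed as ER chaperones and ATF6 targets, 19 were above day 0, 0 were higher and 0 lower. The shares over all genes were 54.1%, 0.878% and 0.396%. The median log2 ratio of the list was 0.12 at day 5 and 0.20 at day 3, against 0.02 and 0.01 over all genes. The co-chaperone DNAJB9 had 0.33, the lectin chaperones CALR and CANX 0.11 and 0.05, and the prolyl isomerase FKBP9 was lowest of the 25 at -0.14. The day 3 and day 5 ratios share the day 0 library and are given side by side only.

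Promoters of some of these and related genes are shown because several hold the ER stress element, the sequence that ATF6 with NF-Y is known to bind. It was searched as CCAAT, 9 bases and CCACG, together with a second form, ERSE-II, ATTGG, 1 base and CCACG, and the amino acid response element of ATF4, TGATG, 1 base and AA, and the unfolded protein response element given below, on both strands. The windows run from 250 bases before to 50 after the gene start in RefSeq (GRCh38.p14), of which the 250 bases before it are printed here 5′ to 3′ on the gene's strand with matches in capitals. They are chr9:125241344-125241593 (minus strand) for HSPA5, chr12:103930160-103930409 (plus strand) for HSP90B1, chr22:28800570-28800819 (minus strand) for XBP1, chr16:56931892-56932141 (plus strand) for HERPUD1 and, as an ER gene with no match, chr7:16805000-16805249 (minus strand) for AGR2.
HSPA5: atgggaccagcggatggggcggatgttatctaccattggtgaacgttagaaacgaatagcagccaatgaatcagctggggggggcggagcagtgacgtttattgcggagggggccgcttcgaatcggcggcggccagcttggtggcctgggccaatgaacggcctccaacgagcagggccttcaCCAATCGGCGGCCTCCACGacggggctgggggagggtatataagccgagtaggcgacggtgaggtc
HSP90B1: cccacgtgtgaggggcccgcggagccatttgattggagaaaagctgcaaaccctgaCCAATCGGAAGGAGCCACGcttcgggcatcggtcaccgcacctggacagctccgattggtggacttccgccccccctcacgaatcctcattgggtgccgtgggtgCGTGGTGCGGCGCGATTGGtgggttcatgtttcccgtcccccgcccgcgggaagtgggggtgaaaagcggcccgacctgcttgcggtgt
XBP1: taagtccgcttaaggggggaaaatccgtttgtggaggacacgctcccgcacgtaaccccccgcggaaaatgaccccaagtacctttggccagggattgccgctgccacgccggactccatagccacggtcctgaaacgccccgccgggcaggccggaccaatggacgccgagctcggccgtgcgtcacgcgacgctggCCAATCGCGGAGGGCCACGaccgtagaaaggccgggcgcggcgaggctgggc
HERPUD1: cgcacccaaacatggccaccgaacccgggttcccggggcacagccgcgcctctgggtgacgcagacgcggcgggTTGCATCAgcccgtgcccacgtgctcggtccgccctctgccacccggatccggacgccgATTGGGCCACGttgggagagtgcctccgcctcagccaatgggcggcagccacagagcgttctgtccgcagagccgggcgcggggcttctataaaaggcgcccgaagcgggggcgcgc
AGR2: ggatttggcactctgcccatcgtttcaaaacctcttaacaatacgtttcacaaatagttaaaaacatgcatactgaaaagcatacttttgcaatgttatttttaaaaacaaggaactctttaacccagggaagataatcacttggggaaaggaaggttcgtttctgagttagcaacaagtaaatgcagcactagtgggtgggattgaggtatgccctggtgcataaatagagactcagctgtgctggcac
The capitals mark 1 ER stress element in HSPA5, 1 on each strand in HSP90B1 and 1 in XBP1. In HERPUD1 the first match is the amino acid response element, on the minus strand, and the second is ERSE-II. The promoters of MANF and SYVN1, searched in the same way but not printed, held no match to any of these elements.

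The ER stress element was in 22 of 27305 promoters of the table (0.0806%) and in 10 of the 6710 selected genes that have one (0.149%). Of 23 ER chaperones and ATF6 targets with a promoter, 5 held it (CALR, CANX, CRELD2, HSP90B1 and HSPA5). The 10 genes with the element had a median log2 ratio of 0.07 with 8 above day 0, against 0.02 with 3657 of 6710 above. They ranged from -0.23 for TMEM120A to 0.46 for HSPA5. Among the 53 higher and 22 lower genes with a promoter in the table, 0 held the element, ERSE-II or the amino acid response element. The unfolded protein response element, TGACGTGG, was in 0 of the 53 higher and 1 of the 22 lower genes (FLNC), in 0.984% of the selected genes and in 0.795% of all promoters. It was in each of the 4 lists searched. These were 2 of 21 XBP1 and IRE1 targets (KDELR3 and SEC62) and 2 of 24 genes of the HRD1 complex and ER-associated degradation (UBE2J1 and VCP). The others were 1 of 23 ER chaperones and ATF6 targets (DNAJC10) and 1 of 25 PERK and ATF4 targets (ALDH18A1). The amino acid response element was in 6 of 25 listed PERK and ATF4 targets (24.0%: ATF3, CHAC1, HERPUD1, NARS, SLC3A2 and SLC7A1), in 1.71% of the selected genes and in 3.67% of all promoters. A match is a run of letters, and binding was not measured.

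AGR2, a protein disulfide isomerase of secretory cells, was the only higher gene among the measured members of its family. AGR2 (ENSG00000106541, minus strand of chromosome 7, 16791811 to 16833433) had 372, 782 and 935 reads, or 19.4, 41.2 and 40.6 CPM. Both doxycycline libraries lay at a like level, 2.09-fold above day 0 [1.85 to 2.37] at day 5, with log2 ratios of 1.06 at day 5 and 1.08 at day 3. Exon reads gave 1.07, and over the alternatives of processing the day 5 ratio ranged from 0.94 to 1.08. Of 14 listed isomerases and their partners, 9 were above day 0, 1 was higher and 0 lower, with a median of 0.12. The shares over all genes were 54.1%, 0.878% and 0.396%, with a median of 0.02. ERP44, which retains proteins in the early secretory pathway, had 953, 1181 and 1368 reads and 0.26 [0.14 to 0.38], and PDIA4, an isomerase of the lumen, had 6042, 7600 and 8449 and 0.22 [0.17 to 0.27].

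For the IRE1 arm, XBP1 had 1314, 1829 and 1812 reads and a log2 ratio of 0.20 [0.10 to 0.30], beside 0.49 at day 3. Splicing of XBP1 cannot be read from gene counts. For the lists that follow, the values over all 8086 genes are 54.1% above day 0, 0.878% higher, 0.396% lower and a median of 0.02. Of 25 listed XBP1 and IRE1 targets 22 were above day 0, 1 was higher and 0 lower, with a median of 0.16, beside 0.19 at day 3. The higher gene was SEC61G, a small subunit of the channel into the ER, with 801, 1017 and 1463 reads and 0.60 [0.48 to 0.73], or 0.39 after removal of the coding length and GC trends. SSR3, of the complex that assists the channel, had 2539, 2887 and 4054 reads and 0.41 [0.34 to 0.48], and the signal peptidase subunit SPCS3 had 1944, 2112 and 2957 and 0.34 [0.26 to 0.42]. The wider list of the signal recognition particle and translocon, which shares several of these genes, had 24 of 29 above day 0, 1 higher, 0 lower and a median of 0.16. SRP14, a subunit of the particle, had 4243, 5034 and 4935 reads and -0.05 [-0.11 to 0.01], and it had -0.23 after removal of those trends. Of 17 transcripts listed as candidates for decay by IRE1, 15 were below and 2 above day 0, beside 54.1% above over all genes. Their median was -0.12, beside -0.02 at day 3. These transcripts had a median GC content of 54.4%, against 48.3% over all genes. The eighth of all genes with 52.5% to 56.9% GC had a median of -0.05. The part of GC content, or of decay by IRE1, in the ratios of this list was not tested. Of these 17, 1 was lower, PDGFRB, a growth factor receptor with few reads (130, 74 and 70; -1.15 [-1.60 to -0.73]) that met the minimum of 100 through the day 0 library alone.

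In the PERK arm, ATF4 had 5573, 7162 and 8068 reads and a log2 ratio of 0.27 [0.22 to 0.32], beside 0.38 at day 3. DDIT3, which encodes the stress factor CHOP, is outside the selection, because 55.7% of its reads were unique, and those reads (272, 366 and 349) gave 0.10 [-0.14 to 0.33], beside 0.44 at day 3. The value depended on the reads taken: total gene reads of DDIT3 gave 0.40, the authors' TPM 0.37 and unique exon reads -0.01. Over all 8086 genes 54.1% were above day 0, 0.878% higher and 0.396% lower, with a median of 0.02. Of 47 listed PERK and ATF4 targets 30 were measured. Of these, 26 were above day 0, 2 were higher and 0 lower, with a median of 0.21, beside 0.35 at day 3. CTH, which makes cysteine, was higher, with 140, 256 and 273 reads and 0.70 [0.40 to 1.00]. SESN2, a stress-induced inhibitor of mTORC1 signalling, was higher, with 243, 410 and 440 reads and 0.59 [0.36 to 0.82]. GDF15, a stress-induced cytokine, had 263, 381 and 466 reads and 0.56 [0.34 to 0.78], just under the limit. In each of these 3 genes both doxycycline libraries were above day 0. The 4 genes below day 0 were SLC1A4, ALDH18A1, SLC6A9 and SLC7A1, at -0.12 to -0.02.

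**Figure D2:**
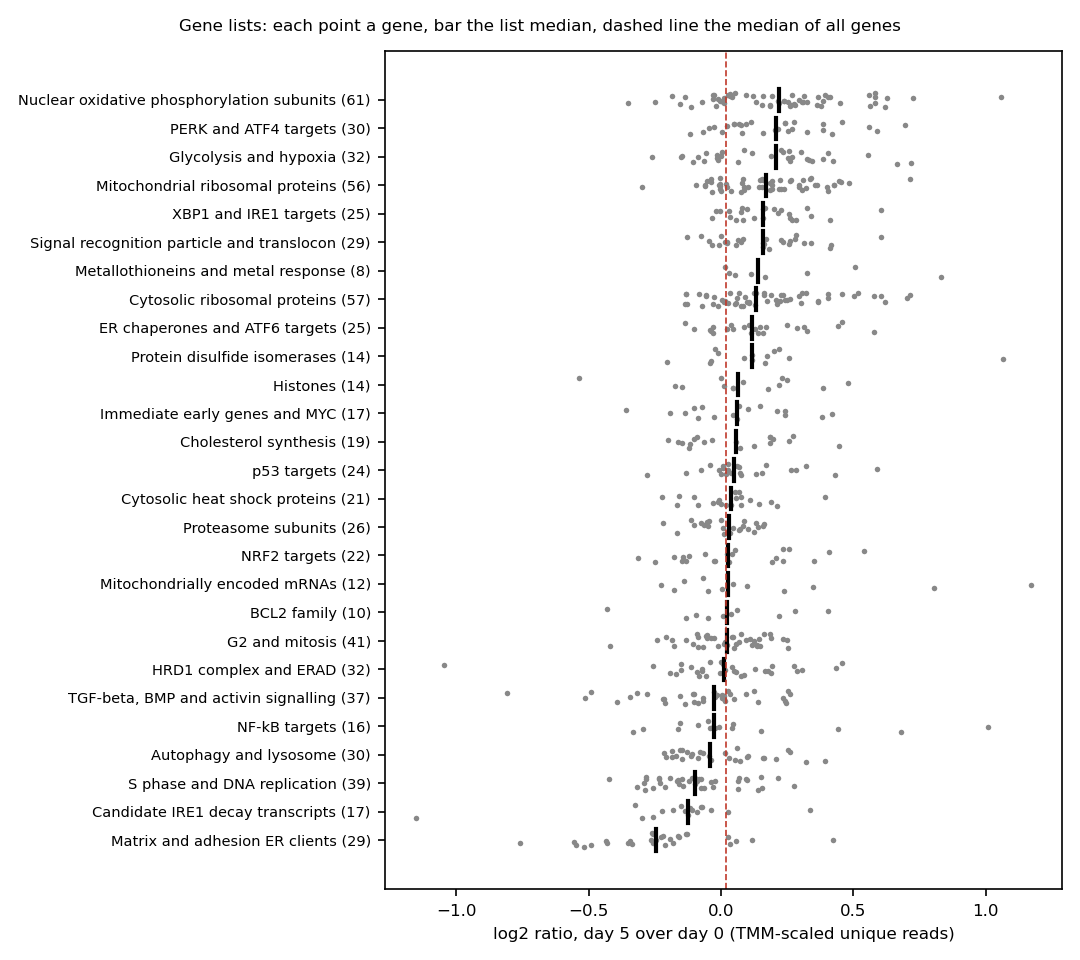
Each row is a gene list with its number of measured genes in brackets, each grey point is the log2 ratio of 1 gene at day 5 over day 0, and black bars are list medians. The dashed line is the median of all 8086 genes, 0.02. Among the lists drawn, which leave out the cell type markers, nuclear oxidative phosphorylation has the highest median, 0.22, and the matrix and adhesion list the lowest, -0.24.

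The 15 lowest ratios were taken over genes whose reads averaged 200 or more. CHCHD10, a protein of the mitochondrial intermembrane space, was lowest, with 575, 613 and 284 reads and -1.28 [-1.49 to -1.07]. It was low in the day 5 library alone, and the day 3 ratio was 0.11. ALPP, placental alkaline phosphatase, had 387, 129 and 228 reads and -1.03 [-1.27 to -0.79], and was lower still at day 3, at -1.57. SUSD2 (ENSG00000099994, chromosome 22, positions 24181259 to 24189110, plus strand), a membrane protein with a sushi domain, had 3525, 2539 and 2291 reads, or 184, 134 and 99.5 CPM. Its log2 ratio was -0.89 [-0.96 to -0.81], beside -0.46 for day 3, so day 3 lay between the other libraries. SUSD2 had -0.73 once trends with exon length and GC content were taken out.

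SMAD6 (ENSG00000137834, chromosome 15, positions 66702228 to 66782848, plus strand), an inhibitory SMAD of BMP signalling, had 462, 298 and 317 reads, or 24.1, 15.7 and 13.8 CPM. It was at 57.1% of day 0, with -0.81 [-1.02 to -0.60] at day 5 and -0.62 at day 3. Its exon reads (292, 195 and 180) gave -0.98 [-1.26 to -0.71], and its intron reads (170, 103 and 137) gave -0.56 [-0.90 to -0.23]. Among the 37 measured genes of TGF-beta, BMP and activin signalling SMAD6 was the 1 lower gene, 0 were higher, 16 were above day 0 and the median was -0.03. The shares over all genes were 0.396% lower, 0.878% higher and 54.1% above day 0. The related inhibitor SMAD7 had -0.21. The BMP-responsive genes ID1 and ID3 had -0.09 and 0.01. CTGF and THBS1, which encode matrix proteins, had 12031, 9912 and 10110 and 13323, 9494 and 11392 reads, with -0.52 [-0.55 to -0.48] and -0.49 [-0.53 to -0.45].

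The other lower genes of this set were UCP2, an uncoupling protein of mitochondria (978, 883 and 669 reads; -0.81), and EBPL, a homologue of a sterol isomerase (592, 582 and 394; -0.85), whose day 3 ratios were -0.13 and -0.01. BCORL1, a corepressor (397, 255 and 279; -0.77), FLNC, a filamin (337, 200 and 241; -0.75), and SHISA2, an inhibitor of WNT and FGF receptor maturation (647, 368 and 474; -0.71), had -0.62, -0.74 and -0.80 at day 3. HES4, MRC2, HR, RMI2 and NES had -0.76, -0.76, -0.74, -0.69 and -0.66. HES4 was above day 0 at day 3, by 0.13. In this group some genes were already low at day 3 and others, such as CHCHD10, EBPL and HES4, only in the day 5 library.

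Matrix and adhesion proteins, which fold in the ER, were mostly below day 0. Of 29 measured, 24 were below and 5 above day 0, beside 54.1% above over all genes. Of the 29, 1 was lower and 0 higher (0.396% and 0.878% over all genes), and the median was -0.24, beside -0.12 at day 3. The lower gene was MRC2, a collagen receptor (657, 496 and 466 reads; -0.76 [-0.93 to -0.59]). LAMB3 and LAMB2, laminin chains, had 12469, 10837 and 10199 and 10238, 8604 and 8407 reads, both with -0.55, within [-0.59 to -0.51]. P4HA1, a collagen hydroxylase, stood at the other end with 0.43. The transcripts of this list had a median GC content of 58.6%, against 48.3% over all genes, and after removal of trends on GC content and on exon or coding length its median was -0.11 or -0.10.

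Among the highest ratios were genes of short proteins of mitochondria and ribosomes. ATP5I, a subunit of ATP synthase, had 316, 415 and 790 reads, or 16.5, 21.9 and 34.3 CPM, and was 2.08-fold higher, with 1.06 [0.87 to 1.25] at day 5 and 0.41 at day 3. UQCRQ of complex III had 2693, 3357 and 5355 reads and 0.73 [0.66 to 0.80], and COA6, an assembly factor of complex IV, had 234, 308 and 482 and 0.78 [0.55 to 1.01]. In these 3 genes the day 5 library was highest, with day 3 between. Of 61 nuclear genes of oxidative phosphorylation 48 were above day 0, 4 were higher (ATP5I, UQCRQ, ATP5E and NDUFA1) and 0 lower. The shares over all genes were 54.1%, 0.878% and 0.396%. The median of these 61 genes was 0.22, beside 0.25 at day 3, and 0.10 once the coding length and GC trends had been removed.

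For the ribosomal lists, the values over all genes are 54.1% above day 0, 0.878% higher, 0.396% lower and a median of 0.02. Of 57 cytosolic ribosomal protein genes 46 were above day 0, 4 were higher (RPL38, RPS27L and RPL35A among them) and 0 lower. Their median was 0.13, beside 0.31 at day 3. Their median coding length was 459 bases, and the eighth of all genes with the shortest coding sequences had a median of 0.14, beside 0.18 at day 3. Their median GC content was 51.1%. The 550 genes with coding sequences of up to 924 bases and 48.3% to 56.9% GC had a median of 0.03, beside 0.17 at day 3. The part of coding length and GC content in the ratios of this list was not tested. RPL38 had 3300, 3625 and 6506 reads and 0.72 [0.65 to 0.78], beside 0.15 at day 3. Ribosomal protein genes have many processed copies in the genome, so reads of RPL35A and RPS27L, of which 94.7% and 96.2% were unique, are uncertain to that extent. Mitochondrial ribosomal proteins had 43 of 56 above day 0, 1 higher (MRPL33; 553, 610 and 1089 reads; 0.71) and a median of 0.17. TMA7, a translation machinery-associated protein, had 1633, 1965 and 3446 reads and 0.81 [0.73 to 0.90], with 90.9% of reads unique. LSM6, of the ring that binds U6 RNA, had 443, 483 and 856 and 0.69 [0.52 to 0.85].

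Mitochondrially encoded transcripts were split. MT-ATP8, a subunit of ATP synthase, had 898, 768 and 2432 reads and the highest ratio of all 8086 genes, 1.17 [1.06 to 1.28], against -0.21 at day 3. MT-ND3, of complex I, had 2769, 2687 and 5810 and 0.80 [0.74 to 0.87], against -0.03. Both were high in the day 5 library alone. Of the 12 measured genes 7 were above day 0, 2 were higher and 0 lower, beside 54.1%, 0.878% and 0.396% over all genes. The median of the 12 was 0.03, or -0.22 and -0.09 after removal of trends on GC content with exon and with coding length. MT-ATP8 overlaps MT-ATP6, and 1866 of its 2432 reads at day 5 are in the column of intron reads. Mitochondrial genes have no introns, and what this column holds for them is not given in the sources used here. Exon reads alone (251, 187 and 566) gave 0.89 [0.67 to 1.11].

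**Figure D3:**
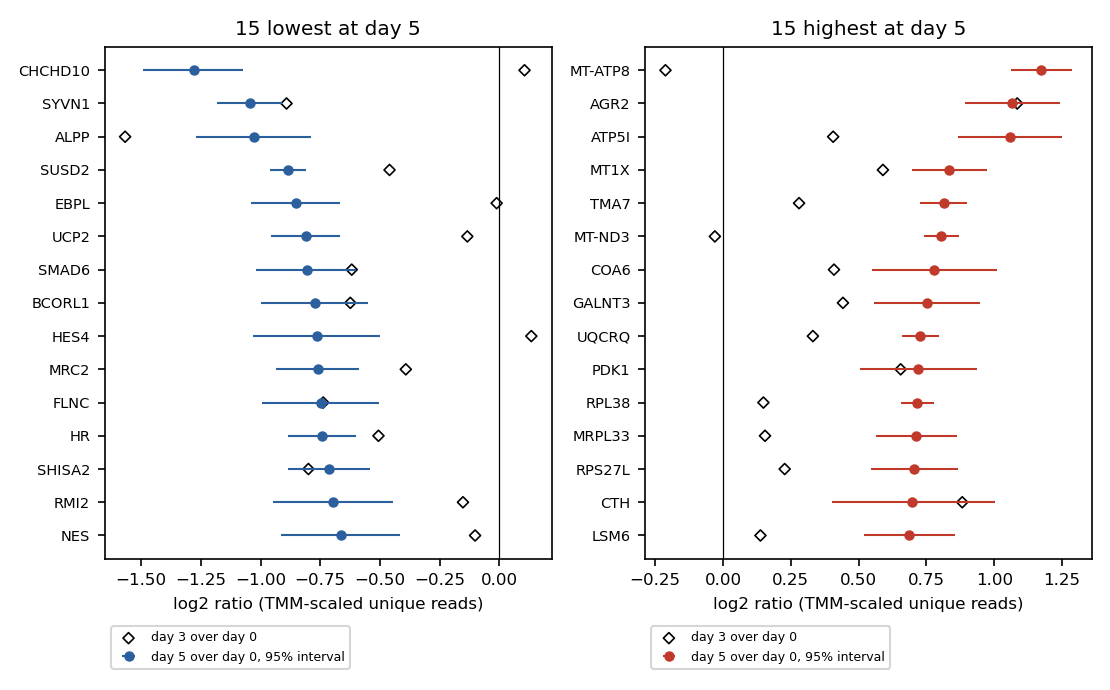
The 15 lowest (left) and 15 highest (right) log2 ratios of day 5 over day 0 among genes averaging 200 or more reads are plotted as filled points with exact 95% intervals of counting error, and the day 3 over day 0 ratios as open diamonds. SYVN1 and AGR2 have near values at both times, while CHCHD10 and MT-ATP8 lie on opposite sides of 0.

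MT1X, a metal-binding metallothionein, had 619, 923 and 1325 reads and 0.83 [0.70 to 0.97], beside 0.59 at day 3. All 8 measured genes of the metal response list were above day 0, 1 was higher and the median was 0.14. Over all genes 54.1% were above day 0 and 0.878% higher, with a median of 0.02. MT1E and MT2A had 0.51 and 0.33. PDK1, which inhibits pyruvate dehydrogenase, had 271, 423 and 536 reads and 0.72 [0.51 to 0.94], and BNIP3, a mitophagy receptor, had 1500, 2278 and 2854 and 0.66 [0.57 to 0.75]. These were the 2 higher genes of the 32 listed for glycolysis and hypoxia, of which 21 were above day 0 and the median was 0.21. Outside these lists, GALNT3, a glycosyltransferase that starts O-linked chains in the Golgi, had 329, 443 and 665 reads and 0.75 [0.56 to 0.95].

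CXCL8, a chemokine, had 82, 141 and 199 reads, which met the minimum of 100 through the day 5 library alone, and 1.01 [0.64 to 1.40], or 0.66 after removal of the coding length and GC trends. BIRC3, an inhibitor of apoptosis, had 126, 123 and 243 and 0.68 [0.37 to 1.00], beside -0.02 at day 3. Both are on the NF-kB list, in which 6 of 16 genes were above day 0, 2 were higher, 0 lower and the median was -0.03, so apart from these 2 genes the list held no difference of 1.5-fold. Among 24 p53 targets 18 were above day 0, SESN2 was the 1 higher gene and the median was 0.05. Over all genes 54.1% were above day 0, 0.878% higher and 0.396% lower. Cytosolic heat shock proteins (12 of 21 above day 0, median 0.04), NRF2 targets (12 of 22, 0.03), the BCL2 family (6 of 10, 0.02), autophagy and lysosome genes (14 of 30, -0.04) and proteasome subunits (17 of 26, 0.03) held 0 higher and 0 lower genes, beside 54.1% above day 0 and a median of 0.02 over all 8086.

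Genes of S phase were more often below than above day 0. Of 39 measured, 29 were below (10 above, beside 54.1% above over all genes), and the median was -0.10, beside 0.04 at day 3. By 1.5-fold 0 were lower or higher. Over all genes 0.878% were higher and 0.396% lower, with a median of 0.02, so 0 calls in so short a list does not set it apart. SLBP, which binds histone mRNA, had 3547, 3744 and 3179 reads and -0.42 [-0.49 to -0.35], and TK1, thymidine kinase, 5062, 5504 and 4885 and -0.32 [-0.37 to -0.26]. The replicative helicase subunits MCM2 to MCM7 were at -0.29 to -0.02. For G2 and mitosis 23 of 41 genes were above day 0 with a median of 0.02 and 0 calls, and KIF14, a mitotic kinesin, had -0.42 [-0.52 to -0.32]. In bulk RNA, fewer cells in a phase and less RNA per cell cannot be told apart.

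Exon and intron reads were then compared apart. By exon reads 74 genes were higher (0.915%) and 44 lower (0.544%), of which 58 and 28 were also called by all unique gene reads. At 2-fold these were 2 (0.0247%) and 5 (0.0618%). Intron reads were fewer, and 13 genes were 2-fold higher and 13 lower by them (0.327% each). At 1.5-fold, of the 3973 genes averaging 50 or more of them 137 were higher (3.45%) and 145 lower (3.65%). The standard deviation of log2 ratios over these genes was 0.326 for intron and 0.202 for exon reads. Of the 74 genes higher by exon reads, 24 had enough intron reads, and in 15 of these intron reads were above day 0, with 3 higher and 2 lower, at a median of 0.18 beside 0.68 for exons. For the 10 such genes lower by exon reads, intron reads were below day 0 in 7 and lower in 3, at a median of -0.44 beside -0.80. Conversely, of 137 genes with higher intron reads 92 had exon reads above day 0, 3 were higher and 0 lower, and of 145 with lower intron reads 99 had them below, 3 were lower and 2 higher.

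YBX3, a cold shock domain protein that binds RNA, had the lowest intron ratio: 417, 388 and 82 intron reads, -2.59 [-2.96 to -2.26]. Its exon reads, 5069, 5556 and 5211, gave -0.24. MSL1, of a histone acetyltransferase complex, had 178, 136 and 84 intron reads (-1.33) with exon reads at -0.03, and NUDT19, a hydrolase of peroxisomes, had 171, 155 and 90 (-1.18) with exon reads at -0.08. In all 3 genes the day 5 library was the lowest in introns, and none of them overlaps another GENCODE gene. ERO1A, the oxidase that recharges disulfide isomerases, had 214, 173 and 134 intron reads (-0.93) while its exon reads, 3655, 3981 and 5113, gave 0.20, and an antisense gene overlaps it. SYT6, a synaptotagmin, had 0 exon reads in every library, and its 155, 92 and 72 intron reads alone make it the lowest gene by unique reads (-1.36). It met the minimum of 100 through the day 0 library alone.

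In the other direction, C16orf91 had 62, 112 and 149 intron reads (1.01) with exon reads at -0.02, and overlaps no other gene. EXOSC8, of the RNA exosome, had 69, 94 and 161 (0.96), but overlaps ALG5 and SUPT20H on the other strand, and the counting is not stated to use strand, so reads of such pairs cannot be told apart. ATP5B, of ATP synthase, had 65, 66 and 142 intron reads (0.87) against 24190, 24601 and 26393 exon reads (-0.16), and the small nucleolar RNA SNORD59A lies within it. ATP6V0A2, of the proton pump, had 67, 65 and 143 (0.83) with exon reads at 0.02, and overlaps a pseudogene and an unclassified transcript on the other strand. ITGB4, an integrin, had 78, 71 and 136 intron reads (0.54) with exon reads at -0.39, and overlaps GALK1 on the other strand. PCED1B, AMZ1 and ETV7 also differed widely between exon and intron ratios, but ETV7 and AMZ1 had few exon reads (11, 6 and 2 and 1, 1 and 4). PCED1B overlaps 4 genes, AMIGO2 on the other strand and a microRNA gene on its own among them, AMZ1 overlaps GNA12 on the other strand, and ETV7 overlaps an antisense gene. MT-ND4L, which overlaps MT-ND4, had exon reads at 0.76 and reads outside the exon at -0.75.

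**Figure D4:**
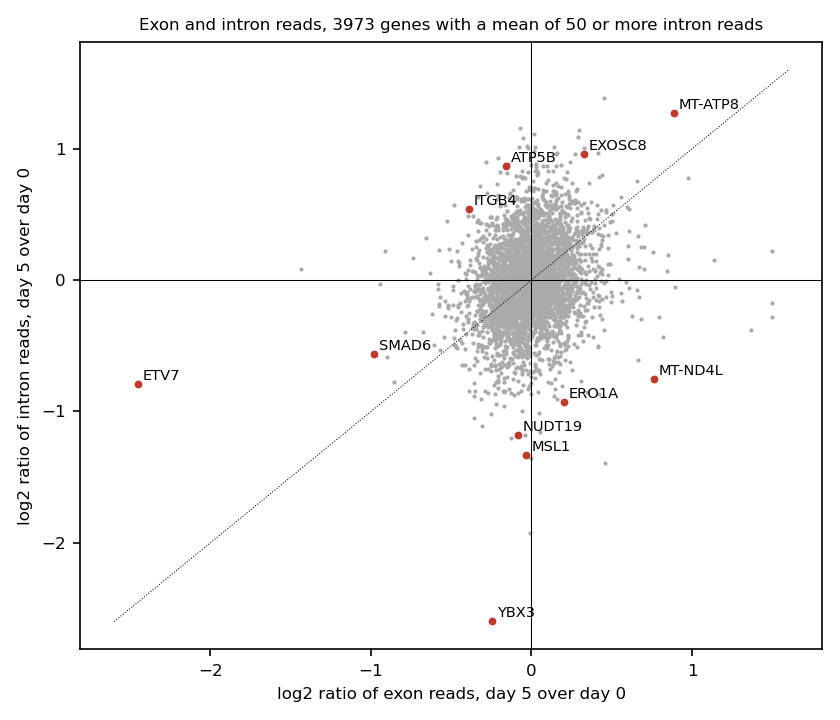
Each point is 1 of the 3973 genes averaging 50 or more intron reads, with the log2 ratio of exon reads at day 5 over day 0 across and that of intron reads up, and the dotted line marks equal ratios. YBX3 lies far below the rest at -2.59 with an exon ratio of -0.24, and the cloud is wider in introns than in exons.

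The log2 ratio also went with features of the transcript. Across 8082 genes with both features, which are not independent and share 2 libraries, Spearman's correlation with transcript GC content was -0.49 and with coding length -0.28. In the eighth of genes lowest in GC the median ratio was 0.15, with 11 higher (1.09%) and 0 lower genes. In the highest eighth it was -0.12, with 3 higher (0.297%) and 10 lower (0.989%). Over all genes 0.878% were higher and 0.396% lower, so the higher genes of the lowest eighth were near the common share. The second lowest eighth held 19. At day 3 the lowest and highest eighths had medians of -0.05 and 0.06, the opposite order. The shortest eighth by coding length, 102 to 633 bases, had a median of 0.14 and held 35 of the 71 higher genes, and the longest had -0.06, beside 0.18 and -0.18 at day 3. Of the 71 higher genes 33 (46.5%) had a coding length under 600 bases, against 2 of the 32 lower (6.25%) and 891 of all (11.0%). The higher genes had a median GC content of 43.4% and the lower genes 59.3%. Once smooth trends with exon length and with GC content were taken out, 46 genes were higher and 28 lower, of which 34 and 22 were among the 71 and 32. With coding length in place of exon length these numbers were 37 and 28, with 29 and 22 shared. SYVN1 (-0.93), AGR2 (0.94), MANF (0.56), SUSD2 (-0.73), SMAD6 (-0.71) and HSPA5 (0.44) kept their direction after the latter. The part of GC content and length in the differences of single genes was not tested.

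**Figure D5:**
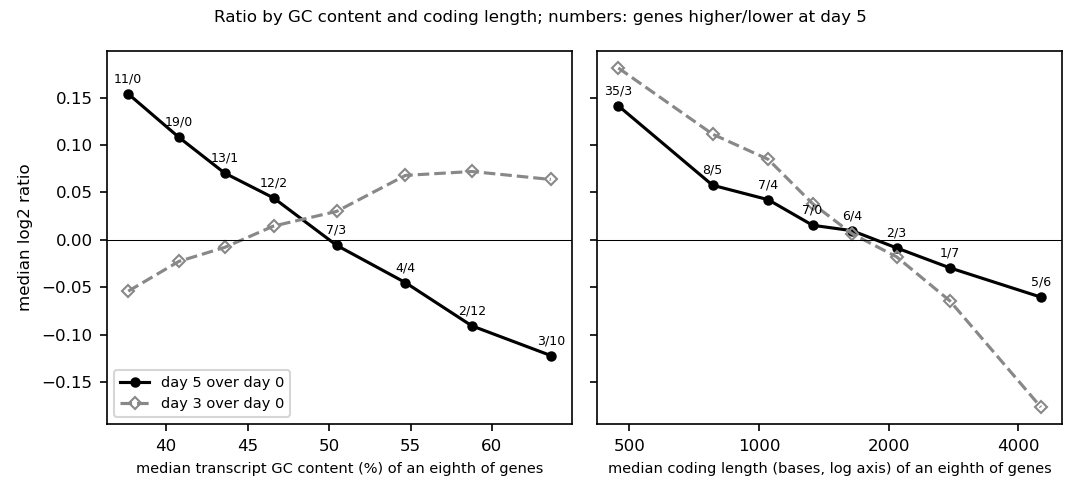
Genes were cut into eighths by transcript GC content (left) or coding length (right, log axis), and the median log2 ratio of each eighth is plotted for day 5 over day 0 (filled) and day 3 over day 0 (open). Numbers are genes higher and lower at day 5. At day 5 the median goes from 0.15 to -0.12 with GC content, while at day 3 it goes from -0.05 to 0.06.

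Reads of hepatocyte and enterocyte marker genes with a mean under 100 reads, and of most blood marker genes, were more numerous in the day 5 library. The 15 colon epithelium markers with a mean under 100 reads had 70, 58 and 100, or 1.19-fold [0.87 to 1.64]. The 16 hepatocyte markers with a mean under 100 reads had 20, 22 and 758 reads in all, 31.6-fold more at day 5 [20.3 to 52.0], and 10, 9 and 1 of them were at 0. ALB, serum albumin, had 0, 0 and 114, and FGB, a fibrinogen chain, 0, 0 and 122. The 15 enterocyte markers had 35, 56 and 253 (6.02-fold) and 10 erythroid markers 23, 19 and 60 (2.17-fold). The 17 leukocyte markers with a mean under 100 had 8, 61 and 137 (14.3-fold). All 18 leukocyte markers had 244, 287 and 431, or 12.7, 15.1 and 18.7 CPM, since CD68, with 27.0% of its reads unique, had 236, 226 and 294. The 11 mesenchymal markers with a mean under 100 had 56, 113 and 88. Markers with a mean under 100 reads are outside the selection, so none of them could be among the 71 higher genes. The selection held 0 enterocyte, 0 erythroid and 0 leukocyte markers and 1 hepatocyte marker. SERPINA1, a hepatocyte marker with many reads in each library (19332, 17422 and 20571), had -0.17. The part of such reads in the ratios of the selected genes was not tested.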

How the data were processed

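RNA-seq libraries from day 0, day 3 and day 5 of doxycycline, 1 each, were used as deposited. Each table holds, per the file headers, counts of unique and total gene, exon and intron reads per gene, and TPM values, which the authors scaled to library size and exon length. Which aligner and counter were used, and how read pairs and strand were treated, is not given in the sources used here. In the submitters' processing notes the build is mm10, a mouse build, but the gene identifiers are human, and 97.6% of the 57980 found in GENCODE 29 have the same positions on GRCh38, so coordinates are GRCh38. A table of the whole series was left out, with its 3 sample columns.

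Unique gene, exon and intron reads were scaled with TMM (edgeR 4.0.16, R 4.3.3), and 0.5 was added to each count before log2 ratios were taken. Exact conditional 95% intervals cover counting error only, and no molecular identifiers are mentioned. With 1 library per group no test was made. Python 3.11.15 was used with scipy 1.17.1, statsmodels 0.14.6, pandas 2.3.3, numpy 2.4.6 and matplotlib 3.10.9. Coding length and GC content came from GENCODE 29, and promoters from RefSeq (GRCh38.p14). The steps were tested on simulated counts.

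Genes and lists were chosen with earlier results of these data known. Named always were SYVN1, AGR2, MANF, SUSD2, SMAD6, HSPA5, HERPUD1, XBP1, ATF4, DDIT3, SEL1L and SRP14. To these came the genes averaging 200 or more reads with the 15 highest or 15 lowest ratios, and the 5 highest and 5 lowest intron ratios and differences between exon and intron ratio in each direction over genes averaging 100 or more intron reads, all with an interval excluding 1. Up to 3 genes of each list with the largest ratios were added, of which 1 is not reported here. Other members named in the text, for contrast or because a count was small, were chosen after their values were seen. The alternatives were other scaling (library totals, DESeq2 1.42.0 size factors, a scaling without mitochondrial and abundant genes), other reads, the authors' TPM with 0.5 added, a prior count of 5, other minimums, an interval excluding 1.5, and removal of lowess trends (span 0.3, 3 rounds).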

Additional observations from a re-analysis of the deposited data

Results flagged for a closer look

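MT-ATP8 stood out because its ratios had opposite signs at the 2 times: the log2 ratio was 1.17 at day 5 and -0.21 at day 3, each with an interval of counting error that excludes 0. The difference between the times was not tested. Marker genes of other tissues, which the comparisons do not use because their mean is under 100 reads, had more reads in the day 5 library than at day 0. These were 758 reads of hepatocyte markers against 20, 253 of enterocyte markers against 35, 137 of 17 leukocyte markers against 8 and 60 of erythroid markers against 23. Over all 18 leukocyte markers, CD68 included, there were 431 reads against 244, or 18.7 against 12.7 CPM. Over all 17 hepatocyte markers, SERPINA1 included, there were 21329 reads against 19352, or 926 against 1009.5 CPM.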

How the results depend on the processing

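With 1 library per time no library could be left out and no spread between cultures could be had. No paired analysis was possible because each group holds 1 library. Of the counts and list medians recomputed under the alternatives, 415 values stayed near the reported ones and 29 moved. For the named genes 1399 values stayed near, 91 moved and 3 changed sign. A mean of 50, of 200 or of no minimum of reads gave 115, 40 and 283 genes at least 1.5-fold higher and 63, 18 and 178 lower. At 2-fold, the minimum of 50 gave 13 higher, 200 gave 3 lower and no minimum gave 166 and 95, and exon reads gave 2 higher. With no minimum share of unique reads 59 genes were lower. Intervals that exclude 1.5 left 10 and 11. Removal of trends on exon length and GC content left 46 genes 1.5-fold higher, and 0 and 3 at 2-fold, with medians of -0.22 for mitochondrially encoded mRNAs and -0.11 for matrix genes. With coding length in place of exon length, an alternative chosen after seeing the data, 37 were higher, and 0 and 3 at 2-fold, with medians of -0.0898, -0.10 and, for oxidative phosphorylation, 0.10. CKS2 went from 0.25 to -0.055 and -0.029 under these removals, and KRT8 from -0.13 to 0.013 with exon length. Minimums of 20 and 100 intron reads gave 319 and 26 genes with higher and 288 and 47 with lower intron reads. The causes of these changes were not tested, beyond the number of genes that each minimum leaves in. At this depth, genes with few reads carry wide intervals: CXCL8, with 82 reads at day 0, spans 0.64 to 1.40.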

Other observations

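Further lists held 0 genes that were 1.5-fold higher or lower. Over all 8086 genes 0.878% were higher, 0.396% lower and 54.1% above day 0, with a median of 0.02. Of 19 cholesterol synthesis genes 10 were above day 0, with a median log2 ratio of 0.06. MSMO1, an oxidase of this pathway, had 1710, 1751 and 2798 reads and 0.45 [0.36 to 0.53]. Of 14 histone genes 11 were above day 0, with a median of 0.07, and HIST1H2BC and HIST1H1C had -0.54 and 0.39. Of 17 immediate early genes and MYC 10 were above day 0, with a median of 0.06. MYC, the growth-regulating transcription factor, had 1650, 2040 and 2584 reads and 0.38 [0.29 to 0.47], and EGR1, an early response factor, had 836, 866 and 784 and -0.36 [-0.50 to -0.21]. FTL, the ferritin light chain, had 31369, 35594 and 50048 reads and 0.41 [0.39 to 0.43]. PMAIP1, which encodes NOXA of the BCL2 family, had 1073, 1119 and 1706 and 0.40 [0.29 to 0.52].

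Among chromosomes, the median log2 ratio ranged from -0.09 on chromosome 22 to 0.09 on chromosome 13, whose genes had a median GC content of 57.0% and 42.8%. Of 12 placental markers with under 100 reads 19, 16 and 12 reads were counted in all at day 0, day 3 and day 5.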
